A study of Mus musculus with 52 samples.

Results

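KDM2A and KDM2B can be disabled in 2 ways, by removing the domain with which they bind CpG islands or by removing the domain with which they demethylate histones, and the promoter accessibility responses to these 2 losses were compared. Accessibility was measured by calibrated ATAC-seq in mouse embryonic stem cells (mESCs), with Drosophila SG4 cells added as a reference, over 20633 promoter intervals of 400 bp that the tables of both lines hold. The comparison used 14 ATAC libraries of the 26 in the series, which has 52 samples with the input genomic DNA libraries counted. For each promoter the response was the log2 value in tamoxifen-treated cells minus that in untreated cells, and the quantity described here is the response of the Kdm2a/b-CXXC line minus the response of the Kdm2a/b-JmjC line. It is called the difference of responses, and a positive value means a higher response in Kdm2a/b-CXXC.

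The Kdm2a/b-CXXC libraries comprised 4 without treatment and 4 after 4-hydroxytamoxifen (800 nM for 96 h), and the Kdm2a/b-JmjC libraries 3 and 3 with the same dose and time. Both lines carry a tamoxifen-inducible CRE and floxed Kdm2a and Kdm2b, and the untreated cells carry the unrecombined floxed alleles. In Kdm2a/b-CXXC cells tamoxifen removes the exons of the ZF-CxxC domain from both genes. In Kdm2a/b-JmjC cells it removes the exons of the JmjC domain, so that the long forms are lost while short forms that keep the ZF-CxxC domain remain. The Kdm2a/b-CXXC line was made by inserting loxP sites into Kdm2a of the Kdm2b-CXXC line, so it shares an origin with that line, and the Kdm2a/b-JmjC cells were derived from mice. Line of origin and deleted domain therefore cannot be told apart in a difference between the lines, although each response is taken within a line. The deleted exons lie inside the genes, so the promoter reads of Kdm2a and Kdm2b do not check the deletion.

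The ZF-CxxC domain is a zinc finger that recognises unmethylated CpG dinucleotides and so brings KDM2 proteins to CpG islands, the CpG-rich elements found at most mammalian promoters. The JmjC domain removes methyl groups from lysine 36 of histone H3. KDM2B also brings a variant polycomb repressive complex 1 (PRC1) that contains PCGF1 to CpG islands, a role that depends on CpG binding.

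No promoter passed the test of a difference between the 2 responses. After a filter on low reads 18054 promoters were tested with limma on log2(RPM + 0.5), where RPM is reads per 1000000 promoter reads of a library. A call required both a fold change over 1.4 and a p under 0.05 after Benjamini-Hochberg adjustment. The number called was 0 (0.0% of those tested), and the smallest limma adjusted p was 0.179. At an unadjusted p under 0.05 there were 569 promoters with a higher response in Kdm2a/b-CXXC (3.15%) and 602 with a lower one (3.33%). The edgeR quasi-likelihood test and the DESeq2 Wald test on reads also called 0, with 1174 and 1102 promoters at an unadjusted p under 0.05. Within Kdm2a/b-CXXC alone, 7 promoters were called (0.0388%), 1 higher and 6 lower after tamoxifen. Within Kdm2a/b-JmjC alone limma called 0 (0.0%), with 1052 at an unadjusted p under 0.05; edgeR and DESeq2 also called 0, with 1060 and 970.

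The count of 0 rested on 1 library. Without untreated replicate 3 of Kdm2a/b-JmjC, 4 promoters were called, those of Patz1, Akap12 and Gm13580 with a lower and that of Snai3 with a higher response in Kdm2a/b-CXXC. The count remained 0 when any other of the 14 libraries was left out. Labels describe the libraries of a group as biological replicates, and p-values measure the spread between them.

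The differences were centred near 0. Their median was -0.0075 on the log2 scale, the quartiles were -0.20 and 0.18, and the 5th and 95th percentiles were -0.67 and 0.58. The median standard error was 0.25, and 2859 promoters had a difference of over 1.4-fold either way. The responses had opposite signs at 8739 promoters (48.4%). Across promoters, which are not independent and within a line share the same libraries, the correlation of the 2 responses was 0.036 (Pearson) and 0.043 (Spearman). Libraries of 1 group correlated at 0.937 to 0.951 across the same promoters.

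The 95% interval of the difference excluded a change of over 2-fold at 12660 promoters (70.1%) and of over 1.4-fold at 3727 (20.6%). The precision followed the level of accessibility. The promoters were divided into 4 groups of equal size by mean accessibility. In the lowest group, with a median of 7.0 RPM, the interval reached a median of 1.25 (log2) to either side of the estimate and 6.23% of promoters had an interval within 2-fold. In the highest group, with a median of 105 RPM, it reached 0.33 and 99.9% were within 2-fold. The 14 libraries held 1.49 to 2.09 M promoter reads (M, 1000000), and the median promoter held 58 to 81 reads in a library. Where the interval reached over 1.4-fold to either side of the estimate, a difference of 1.4-fold could not be told from 0 with these libraries. A call also needed a small p after adjustment, so larger differences could go uncalled at narrower intervals too. At the Fn3krp promoter the difference was -0.62 (95% interval -0.93 to -0.32), with a limma adjusted p of 0.216.

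**Figure D1:**
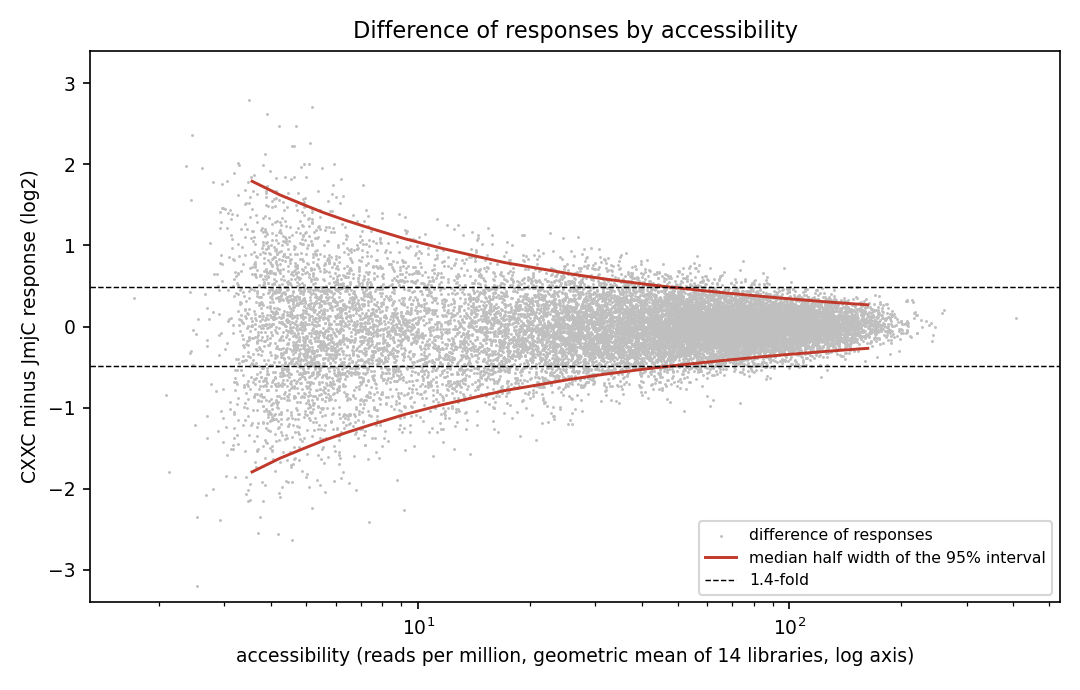
Each grey point is 1 of 18054 tested promoters, with its accessibility on the horizontal log axis (RPM, geometric mean of 14 libraries) and the Kdm2a/b-CXXC response minus the Kdm2a/b-JmjC response on the vertical axis (log2). The red lines, the median reach of the 95% interval to either side of 0, narrow from left to right and fall inside the dashed 1.4-fold lines at high accessibility (1.25 in the lowest and 0.33 in the highest of 4 groups by level).

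The promoters with the smallest p among those over 1.4-fold were then taken, 10 in each direction, as the leading promoters. None was called in the test of the difference with all libraries, and their ranking used the measure itself, so the values that follow are a description. Of the first 3 in each direction, taken by rank, 5 are shown by the central 300 bases of the deposited interval, and their base composition differs widely. The sequences were read from the mouse reference GRCm38.p6, the same build as mm10, on the strand of the gene, and capitals mark CpG dinucleotides, the letters that the ZF-CxxC domain recognises. Tmtc4 and Tor4a had a higher response in Kdm2a/b-CXXC, and the others a lower one.
Tmtc4, chr14:122983112-122983411, minus strand: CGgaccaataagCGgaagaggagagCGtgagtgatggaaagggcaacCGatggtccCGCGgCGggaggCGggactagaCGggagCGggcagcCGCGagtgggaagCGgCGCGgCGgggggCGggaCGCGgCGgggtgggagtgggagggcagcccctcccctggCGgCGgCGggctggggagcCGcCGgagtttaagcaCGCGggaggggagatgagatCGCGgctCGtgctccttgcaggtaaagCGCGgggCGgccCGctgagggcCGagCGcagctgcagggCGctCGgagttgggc
Tor4a, chr2:25196664-25196963, minus strand: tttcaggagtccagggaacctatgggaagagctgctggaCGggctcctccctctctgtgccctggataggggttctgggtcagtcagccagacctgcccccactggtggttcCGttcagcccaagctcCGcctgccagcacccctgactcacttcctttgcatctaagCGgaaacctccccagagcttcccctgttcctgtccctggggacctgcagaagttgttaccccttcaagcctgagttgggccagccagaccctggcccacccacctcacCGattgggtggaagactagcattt
Patz1, chr11:3288981-3289280, plus strand: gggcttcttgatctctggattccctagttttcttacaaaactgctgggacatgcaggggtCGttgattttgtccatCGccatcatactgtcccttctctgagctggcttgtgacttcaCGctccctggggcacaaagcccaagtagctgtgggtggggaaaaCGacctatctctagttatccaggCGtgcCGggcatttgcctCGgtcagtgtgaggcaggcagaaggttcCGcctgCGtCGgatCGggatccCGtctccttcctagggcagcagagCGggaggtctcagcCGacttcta
Akap12, chr10:4266179-4266478, plus strand: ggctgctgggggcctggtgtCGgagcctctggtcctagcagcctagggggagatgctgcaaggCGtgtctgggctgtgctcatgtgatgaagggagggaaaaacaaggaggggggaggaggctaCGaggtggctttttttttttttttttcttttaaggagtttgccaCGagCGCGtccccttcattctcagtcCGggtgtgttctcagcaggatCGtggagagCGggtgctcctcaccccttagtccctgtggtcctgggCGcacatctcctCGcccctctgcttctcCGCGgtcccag
Gm13580, chr2:60411375-60411674, plus strand: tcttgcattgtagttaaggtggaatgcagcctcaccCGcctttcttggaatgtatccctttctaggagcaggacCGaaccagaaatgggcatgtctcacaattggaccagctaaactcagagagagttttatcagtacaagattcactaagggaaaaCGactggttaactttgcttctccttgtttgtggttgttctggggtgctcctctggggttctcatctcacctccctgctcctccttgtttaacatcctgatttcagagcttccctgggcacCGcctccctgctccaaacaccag

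Tmtc4 was dense in CpG, with 38 CpGs in the window shown, against a median of 22 and quartiles of 10 and 31 over 17903 windows of tested promoters. Tor4a held 5. Patz1, Akap12 and Gm13580 held 14, 13 and 4, all below the median of all windows. Over the whole 400 bp interval, 7 of the 10 leading promoters with a higher and 2 of the 10 with a lower response in Kdm2a/b-CXXC were CpG-rich (GC content 0.5 or more, ratio of observed to expected CpG 0.6 or more), as were 62.4% of all tested promoters.

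**Figure D2:**
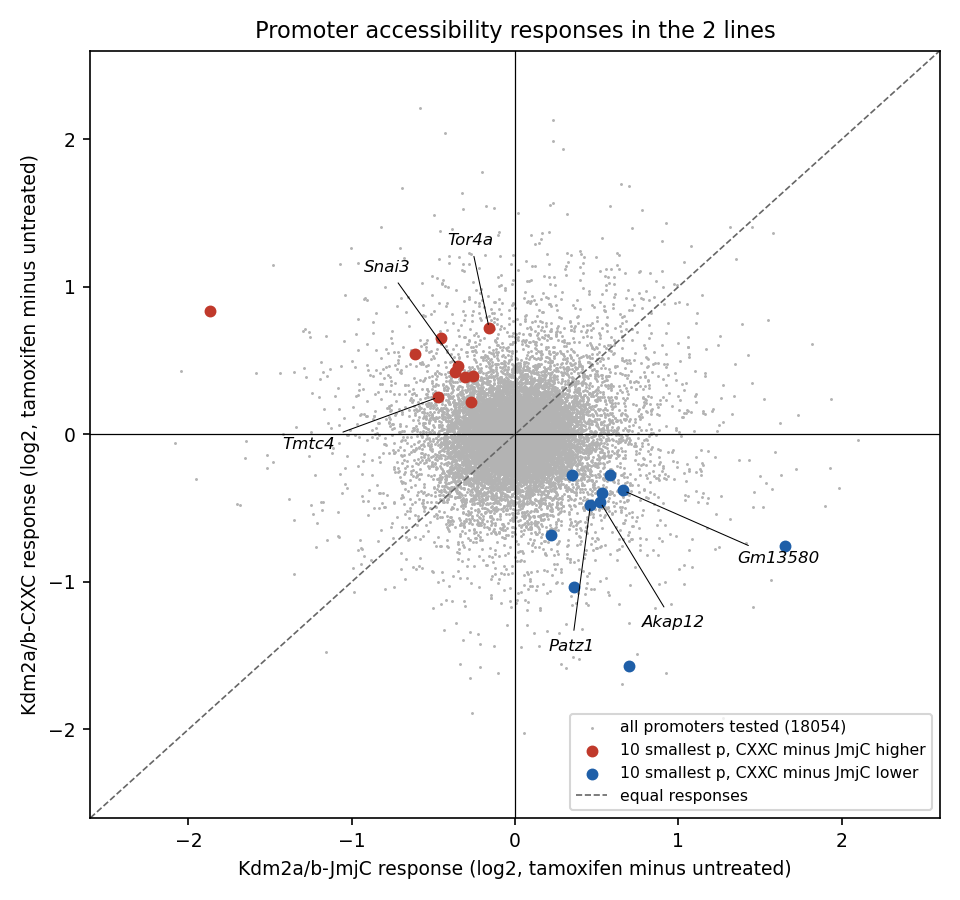
Each grey point is 1 of 18054 tested promoters, with the log2 response (tamoxifen minus untreated) in Kdm2a/b-JmjC on the horizontal and in Kdm2a/b-CXXC on the vertical axis, and the dashed line marks equal responses. The 10 leading promoters with a higher (red) and the 10 with a lower (blue) response in Kdm2a/b-CXXC lie in opposite corners, while the whole cloud has a correlation of 0.036.

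Patz1 encodes a BTB zinc finger transcription factor, and its promoter (NR_045108, mm10 chr11:3288931-3289330) had the smallest p. The 4 untreated Kdm2a/b-CXXC libraries had 80.0, 102.5, 100.6 and 84.2 RPM and the 4 treated ones 58.1, 66.8, 72.3 and 65.3. In Kdm2a/b-JmjC the 3 untreated libraries had 49.3, 51.6 and 79.6 RPM and the 3 treated ones 73.0, 83.3 and 87.7. All treated Kdm2a/b-CXXC libraries lay below all untreated ones, whereas the Kdm2a/b-JmjC groups overlapped through untreated replicate 3, which lay among the treated values. The responses were -0.48 and 0.46 in log2, and their difference was -0.94 (SE 0.20, limma adjusted p = 0.179). Without untreated replicate 3 of Kdm2a/b-JmjC it was -1.16 (limma adjusted p = 0.00509).

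Akap12 encodes a scaffold that binds protein kinase A, and its promoter (NM_031185, chr10:4266129-4266528) had 85.3, 72.6, 99.96 and 75.6 RPM in untreated and 50.9, 64.7, 54.7 and 72.5 RPM in treated Kdm2a/b-CXXC libraries. In Kdm2a/b-JmjC it had 35.0, 39.7 and 54.1 RPM without treatment and 67.4, 61.1 and 54.3 RPM with it. Neither line's groups overlapped, but in each the nearest untreated and treated libraries were almost level. The difference of responses was -0.98 (SE 0.22, limma adjusted p = 0.197), and -1.15 without untreated replicate 3 of Kdm2a/b-JmjC (limma adjusted p = 0.0166).

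Gm13580 is a non-coding transcript, and its promoter (NR_046065, chr2:60411325-60411724) had 39.0, 54.8, 52.7 and 43.8 RPM in untreated and 33.7, 41.0, 44.9 and 27.2 RPM in treated Kdm2a/b-CXXC libraries. In Kdm2a/b-JmjC it had 51.8, 44.9 and 76.6 RPM without treatment and 95.1, 74.3 and 100.8 RPM with it. The groups overlapped in both lines, and untreated replicate 3 of Kdm2a/b-JmjC again lay closest to the treated values. The difference of responses was -1.04 (SE 0.24, limma adjusted p = 0.197), and -1.26 without that library (limma adjusted p = 0.0166).

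Snai3 encodes a zinc finger repressor of the SNAIL family, and its promoter led the other direction. It had 68.5, 60.5, 62.8 and 59.0 RPM in untreated and 95.7, 76.9, 87.3 and 87.1 RPM in treated Kdm2a/b-CXXC libraries, with no overlap. In Kdm2a/b-JmjC it had 99.3, 99.9 and 66.9 RPM without treatment and 68.0, 70.1 and 66.7 RPM with it, so that untreated replicate 3 sat among the treated libraries and the other untreated libraries well above them. The difference of responses was 0.81 (SE 0.20, limma adjusted p = 0.197), and 1.00 without that library (limma adjusted p = 0.0166). In all of these 4 promoters untreated replicate 3 of Kdm2a/b-JmjC was the untreated library of its line nearest to the treated mean. They are the promoters called when that library was left out, a choice that favours this position, so it is no separate observation.

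Tmtc4 encodes a protein O-mannosyltransferase of the endoplasmic reticulum. Its promoter (NM_028651, chr14:122983062-122983461) had 84.7, 105, 79.6 and 104 RPM in untreated and 108, 123, 106 and 106 RPM in treated Kdm2a/b-CXXC libraries. In Kdm2a/b-JmjC it had 108, 109 and 106 RPM without treatment and 91.3, 65.4 and 77.9 RPM with it. The groups did not overlap in either line, narrowly so in Kdm2a/b-CXXC, and the larger response was the lower one in Kdm2a/b-JmjC (-0.47, against 0.25). The difference of responses was 0.72 (SE 0.18, limma adjusted p = 0.197), and with 1 library left out it lay between 0.60 and 0.84 with a limma adjusted p of 0.147 to 0.575.

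Tor4a encodes an ATPase of the torsin family. Its promoter (NM_146115, chr2:25196614-25197013) had 55.8, 43.9, 53.9 and 43.1 RPM in untreated and 84.0, 83.5, 74.9 and 80.4 RPM in treated Kdm2a/b-CXXC libraries. In Kdm2a/b-JmjC it had 51.8, 52.6 and 49.5 RPM without treatment and 46.6, 53.8 and 38.6 RPM with it. The treated Kdm2a/b-CXXC libraries stood far above all others, and the Kdm2a/b-JmjC groups overlapped. Its response was 0.72 in Kdm2a/b-CXXC (limma adjusted p = 0.0258) and -0.16 in Kdm2a/b-JmjC, and the difference was 0.88 (SE 0.23, limma adjusted p = 0.279).

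**Figure D3:**
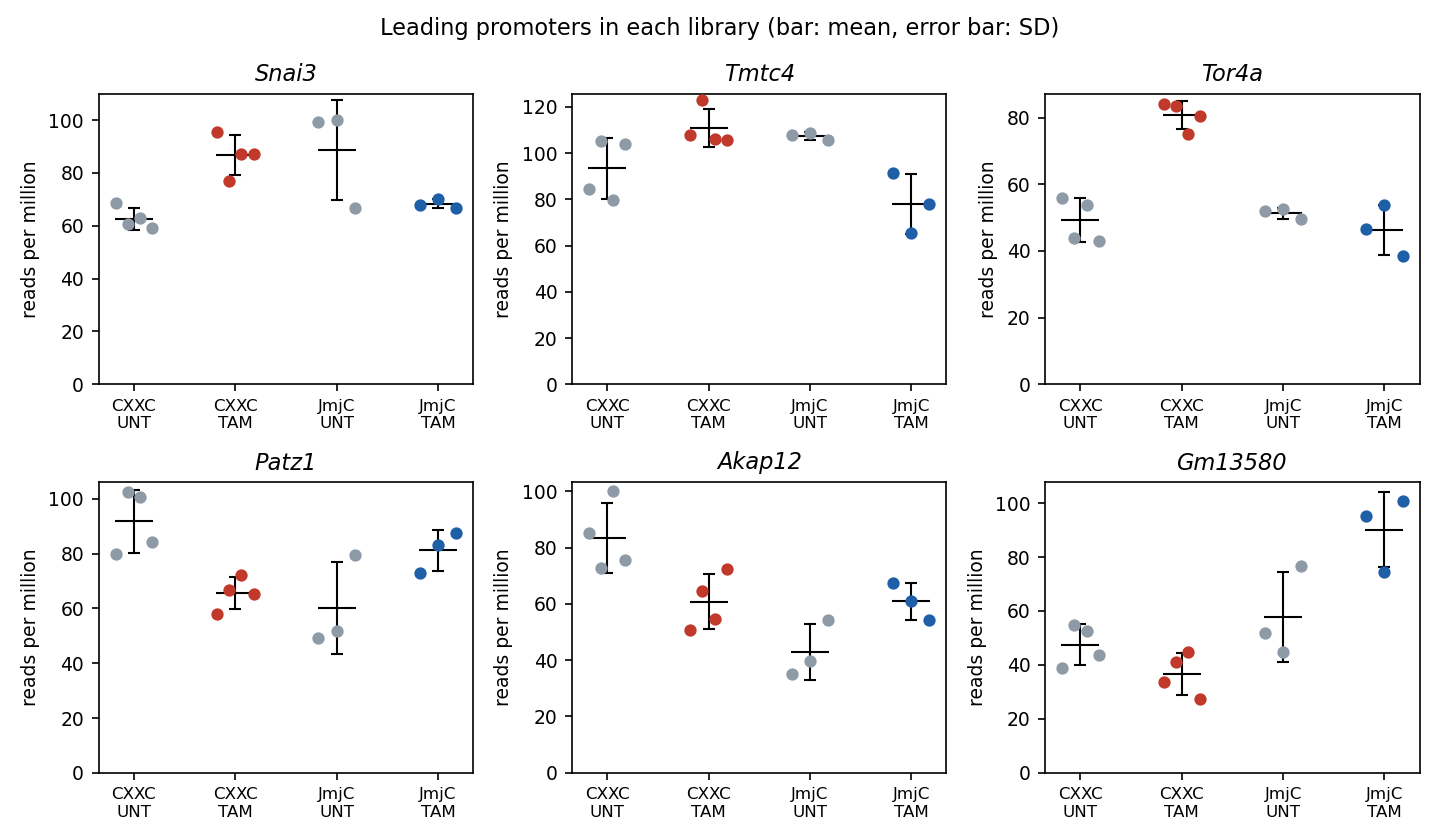
RPM (vertical axis, from 0) at the first 3 leading promoters of each direction, with 1 point for each of the 14 libraries, a bar at the group mean and error bars of 1 SD (n = 4, 4, 3 and 3; UNT, untreated; TAM, tamoxifen-treated; CXXC, Kdm2a/b-CXXC; JmjC, Kdm2a/b-JmjC). At Snai3, Patz1 and Gm13580 a single untreated JmjC library, at 66.9, 79.6 and 76.6 RPM, lies among the treated ones.

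The other 14 leading promoters followed in the ranking of their direction. With a higher response in Kdm2a/b-CXXC they were Pld2 (a phospholipase D, 0.65), Cd320 (the receptor for transcobalamin-bound vitamin B12, 0.79), Ppbp (a platelet chemokine precursor, 2.70), Spint2 (a serine protease inhibitor, 0.69), Rpl37rt (a retrotransposed copy of a ribosomal protein gene, 1.16), Mapk7 (the kinase ERK5, 0.49) and D130017N08Rik (non-coding, 1.11). With a lower response they were Snx10 (a sorting nexin of endosomes, -0.90), Il1rapl2 (an interleukin 1 receptor family member, -2.27), Fn3krp (a ketosamine kinase, -0.62), Kcnmb2 (a potassium channel subunit, -2.41), Sparc (a matrix-associated glycoprotein, -0.86), Yipf6 (a Golgi membrane protein, -0.93) and LOC666331 (-1.39). The limma adjusted p-values ran from 0.197 to 0.540 over the 10 promoters with a higher and from 0.179 to 0.374 over the 10 with a lower response.

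The largest of these differences, at Ppbp, Il1rapl2 and Kcnmb2, came from promoters with few reads, with group means from 3.06 to 18.04 RPM. Ppbp had 6.05, 1.27, 12.6 and 4.64 RPM in untreated and 8.85, 8.09, 9.12 and 9.67 RPM in treated Kdm2a/b-CXXC libraries, and the groups overlapped in both lines. In Kdm2a/b-JmjC it had 5.00, 11.5 and 7.66 RPM without treatment, and 0, 2.64 and 6.54 RPM with it. Its difference of 2.70 had a 95% interval from 1.15 to 4.26. Rpl37rt resembles its parent gene, and although reads that mapped more than once were removed, its value is uncertain.

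Over the leading promoters the 2 responses had opposite signs at 10 of 10 in each direction, which the ranking by their difference favours. The Kdm2a/b-CXXC groups did not overlap at 7 of the 10 promoters with a higher response and 5 of the 10 with a lower one, against 4.84% of all tested promoters. The Kdm2a/b-JmjC groups did not overlap at 4 and 6, against 10.8% of all. Both did so at 3 and 2. Because these promoters were chosen from the same contrast, the counts are given without a test.

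The Kdm2a-CXXC and Kdm2b-CXXC lines, in which the ZF-CxxC domain is removed from only 1 of the proteins, were not used in the ranking (6 libraries each, 3 untreated and 3 treated). In Kdm2b-CXXC the response had the sign of the difference at 8 of the 10 leading promoters in each direction, and in Kdm2a-CXXC at 4 of 10 in each. The median responses of the higher and lower leading promoters were 0.078 and -0.14 in Kdm2b-CXXC and -0.17 and 0.021 in Kdm2a-CXXC. At an unadjusted limma p under 0.05 were 0 and 1 of them in Kdm2b-CXXC, and 2 and 0 in Kdm2a-CXXC. The 2, Tmtc4 (-0.37) and D130017N08Rik (-0.42), had the sign opposite to the difference. In Kdm2b-CXXC 59.1% of the 569 promoters with a higher response at an unadjusted p under 0.05 had a positive response, against 38.7% of the 602 with a lower one and 50.9% of all tested promoters. The corresponding shares in Kdm2a-CXXC were 46.2%, 55.8% and 50.8%. No library is shared between the lines, but Kdm2b-CXXC is the parent of Kdm2a/b-CXXC, and whether the shares differ between the 2 single lines was not tested.

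The 7 promoters that passed the test within Kdm2a/b-CXXC, which were named after their values were seen, differed in how they compared with Kdm2a/b-JmjC. Tor4a rose, and Urgcp, Otx2 (NM_144841), Rims2, Pdgfa, Snx10 and Hmx3 fell, with limma adjusted p-values of 0.0258 to 0.0331. Otx2 and Hmx3 encode homeodomain transcription factors, Rims2 a protein of the presynaptic active zone and Pdgfa a chain of platelet-derived growth factor. In Kdm2a/b-JmjC the same promoters had responses between -0.39 (Hmx3) and 0.22 (Snx10). The difference of responses was smallest at Urgcp, at -0.35 with a 95% interval from -0.76 to 0.060, and its 2 responses were -0.69 and -0.34.

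Otx2 (NM_144841, chr14:48662673-48663072) showed the other extreme. It had 27.5, 32.5, 43.1 and 40.5 RPM in untreated and 12.7, 10.1, 24.8 and 23.6 RPM in treated Kdm2a/b-CXXC libraries, against 23.1, 19.1 and 23.0 RPM in untreated and 18.9, 21.1 and 27.5 RPM in treated Kdm2a/b-JmjC libraries. The treated Kdm2a/b-CXXC libraries lay below all untreated ones of that line, and the Kdm2a/b-JmjC groups overlapped. The responses were -1.07 and 0.036, and the difference was -1.10 (SE 0.35, limma adjusted p = 0.594).

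Rims2 (NM_001256384, chr15:39659311-39659710) was similar, with 45.7 to 61.1 RPM in untreated and 25.4 to 33.9 RPM in treated Kdm2a/b-CXXC libraries and 23.6 to 33.4 RPM over all 6 Kdm2a/b-JmjC libraries. Untreated Kdm2a/b-CXXC cells were thus higher than both Kdm2a/b-JmjC groups at Rims2, and the treated cells were at the Kdm2a/b-JmjC level, a comparison of levels across separate tables that was not tested. Snx10 and Tor4a were also among the leading promoters. The 7 calls depended on single libraries, with 0 without untreated replicate 2 (1604 at an unadjusted p under 0.05), 1 without tamoxifen replicate 2, 2 without tamoxifen replicate 1 or untreated replicate 3, and 4 without untreated replicate 4. Membership moved as well, since 3 of the 7 called without tamoxifen replicate 3, 4 of the 7 without untreated replicate 1, 5 of the 10 without tamoxifen replicate 4 and 2 of the 4 without untreated replicate 4 were among the original 7. On the spike-in scale limma called 0 (1219 at an unadjusted p under 0.05). On the reads without the spike-in, edgeR called 14, with all of the 7, and DESeq2 9, with 6 of the 7.

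The promoters of the targeted genes did not pass the test, nor did Fbxl20, which encodes an F-box protein, and Fosl2, which encodes an AP-1 subunit. The study showed both genes as examples of increased nuclear RNA in treated Kdm2a/b-CXXC cells, a measure other than accessibility. Kdm2a (chr19:4396878-4397277) had 57.1, 68.8, 59.3 and 71.6 RPM in untreated and 75.8, 85.5, 68.4 and 83.4 RPM in treated Kdm2a/b-CXXC libraries, and 53.7, 81.3 and 74.5 against 74.3, 81.2 and 82.4 RPM in Kdm2a/b-JmjC. The groups overlapped in both lines, and the difference was 0.083 (95% interval -0.32 to 0.49). For the downstream promoter of Kdm2b (NM_013910, chr5:122900151-122900550) it was 0.13 (-0.25 to 0.52) and for the upstream one (NM_001003953, chr5:122988900-122989299), which shares bases with another tested promoter, -0.049 (-0.77 to 0.67). It was 0.21 for Fbxl20 (-0.16 to 0.59) and 0.17 for Fosl2 (-0.55 to 0.89).

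The genes around KDM2 function were then examined by lists, with 0 members called in any list. Counts below are of promoters at an unadjusted p under 0.05, read against 3.15% higher and 3.33% lower over all promoters, of which 8837 of 18054 had a positive difference (median -0.0075). Of 5 promoters of H3K36 methyltransferases none was higher or lower and 2 were positive (median -0.021), the extremes being Smyd2 (0.35) and Nsd1 (-0.37). Of 20 promoters in the list of other JmjC histone demethylases, 1 was higher (Riox2, 0.49), 1 was lower (Kdm3a, -0.72) and 11 were positive (median 0.026). Of 13 promoters of proteins with a ZF-CxxC domain, 2 were lower, those of Mbd1 (a methyl-CpG binding protein, -0.47) and Fbxl19 (a CpG island binding F-box protein, -0.80), and 5 were positive (median -0.057).

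In the variant PRC1 with PCGF1, which contains KDM2B, 3 of 12 promoters were lower and none higher. They were Pcgf1 (the subunit that defines the complex, -0.44), Skp1 (an adaptor that joins F-box proteins, -0.43) and Usp7 (a deubiquitinase, -0.75), and 5 of the 12 were positive (median -0.067). At Pcgf1 the untreated and treated Kdm2a/b-CXXC libraries overlapped (91.4, 89.8, 74.2 and 88.9 against 91.8, 64.2, 78.2 and 88.9 RPM), and in Kdm2a/b-JmjC the untreated libraries had 65.6, 89.9 and 77.6 RPM and the treated ones 107, 96.5 and 89.6. The difference at Pcgf1 thus came mainly from the Kdm2a/b-JmjC response (0.34, against -0.10).

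For the other PRC1 subunits 1 of 15 promoters was lower (Pcgf5, -1.78, and -0.79 without untreated replicate 2 of Kdm2a/b-JmjC, the library where it was at 0 RPM) and 6 were positive (median -0.015). For PRC2, the complex that methylates lysine 27 of histone H3, 1 of 12 was lower (Aebp2, an accessory subunit, -0.56) and 4 were positive (median -0.12). Targets of polycomb complexes had values on both sides. Of 41 Hox promoters 3 were higher, 1 was lower (Hoxd12, -1.19) and 21 were positive (median 0.012), and of 92 promoters of other developmental regulators 4 were higher, 4 lower and 48 positive (median 0.021).

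Pluripotency genes were counted in the same way. Of 17 promoters of naive pluripotency genes 4 were lower at an unadjusted p under 0.05, none was higher and 3 were positive, with a median of -0.21. The 4 were Nanog (a homeodomain factor of the naive state, -0.71), Prdm14 (a repressor that supports it, -0.73), Fgf4 (a growth factor of mESCs, -0.51) and Tfcp2l1 (a transcription factor of the naive network, -0.43). Of 17 promoters of formative and primed state genes 3 were lower, all at Otx2 (-0.99, -1.10 and -1.29), none was higher and 5 were positive, with a median of -0.22. The 3 Otx2 intervals do not overlap but belong to 1 gene. None of these promoters passed after adjustment, where the limma adjusted p-values of the named ones were 0.594 to 0.719.

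Nanog (NM_001289831) had 48.4, 58.6, 83.2 and 75.6 RPM in untreated and 38.7, 43.0, 52.8 and 39.3 RPM in treated Kdm2a/b-CXXC libraries, with 32.5, 34.4 and 25.0 RPM in untreated and 24.6, 36.4 and 40.6 RPM in treated Kdm2a/b-JmjC libraries. Prdm14 had 45.02, 42.7, 46.1 and 43.1 RPM in untreated and 28.8, 21.8, 34.5 and 20.6 RPM in treated Kdm2a/b-CXXC libraries, with 48.7, 33.5 and 28.1 against 46.6, 30.6 and 30.1 RPM in Kdm2a/b-JmjC. The Kdm2a/b-CXXC groups overlapped at Nanog but not at Prdm14, and at both genes the Kdm2a/b-JmjC groups overlapped. Their responses were -0.59 and -0.76 in Kdm2a/b-CXXC, against 0.12 and -0.033 in Kdm2a/b-JmjC.

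Markers of other cell types were examined beside these lists. Of 11 tested primitive endoderm marker promoters 1 was positive (Sox7, 0.22), with a median of -0.46, and none was at an unadjusted p under 0.05. Summed over the list they had 317 to 359 RPM in untreated and 258 to 305 RPM in treated Kdm2a/b-CXXC libraries, and 308 to 342 and 329 to 341 RPM in Kdm2a/b-JmjC, with no marker at a group mean of 0. In single libraries a marker could be at 0, as Pdgfra (NM_011058) was in tamoxifen replicate 3 of Kdm2a/b-CXXC. The summed mESC markers (10 promoters) had 575 to 682 and 530 to 593 RPM in Kdm2a/b-CXXC and 588 to 615 and 608 to 698 RPM in Kdm2a/b-JmjC. Of 11 fibroblast marker promoters 3 were positive (median -0.065, 0 at an unadjusted p under 0.05), and of 8 trophoblast ones 3 (median -0.17, 1 lower). The part of such cells in the result was not tested, and in a bulk sample a changed share of cells and a changed promoter cannot be told apart.

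In the other lists no more than 2 promoters lay in either direction. Of 17 promoters for RNA polymerase II pausing and release 1 was lower, that of Ccnt1 (-0.33), a cyclin of the elongation factor P-TEFb, and 9 were positive (median 0.0032). For cytosolic ribosomal proteins 1 of 35 was lower (Rps23, -0.49) and 22 were positive (median 0.030). For germline genes 2 of 16 were higher (Slc25a31, 0.69, and Stag3, 0.57; median 0.097), for immediate early genes 2 of 21 were higher and 1 lower (median 0.099), and for p53 targets and cyclin-dependent kinase inhibitors 2 of 21 were higher and 1 lower (median 0.077). Since tamoxifen acts on estrogen receptors, 10 promoters of estrogen-responsive genes were included, and 1 was lower (Esr1, the estrogen receptor itself, -1.51) and 4 were positive (median -0.13).

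**Figure D4:**
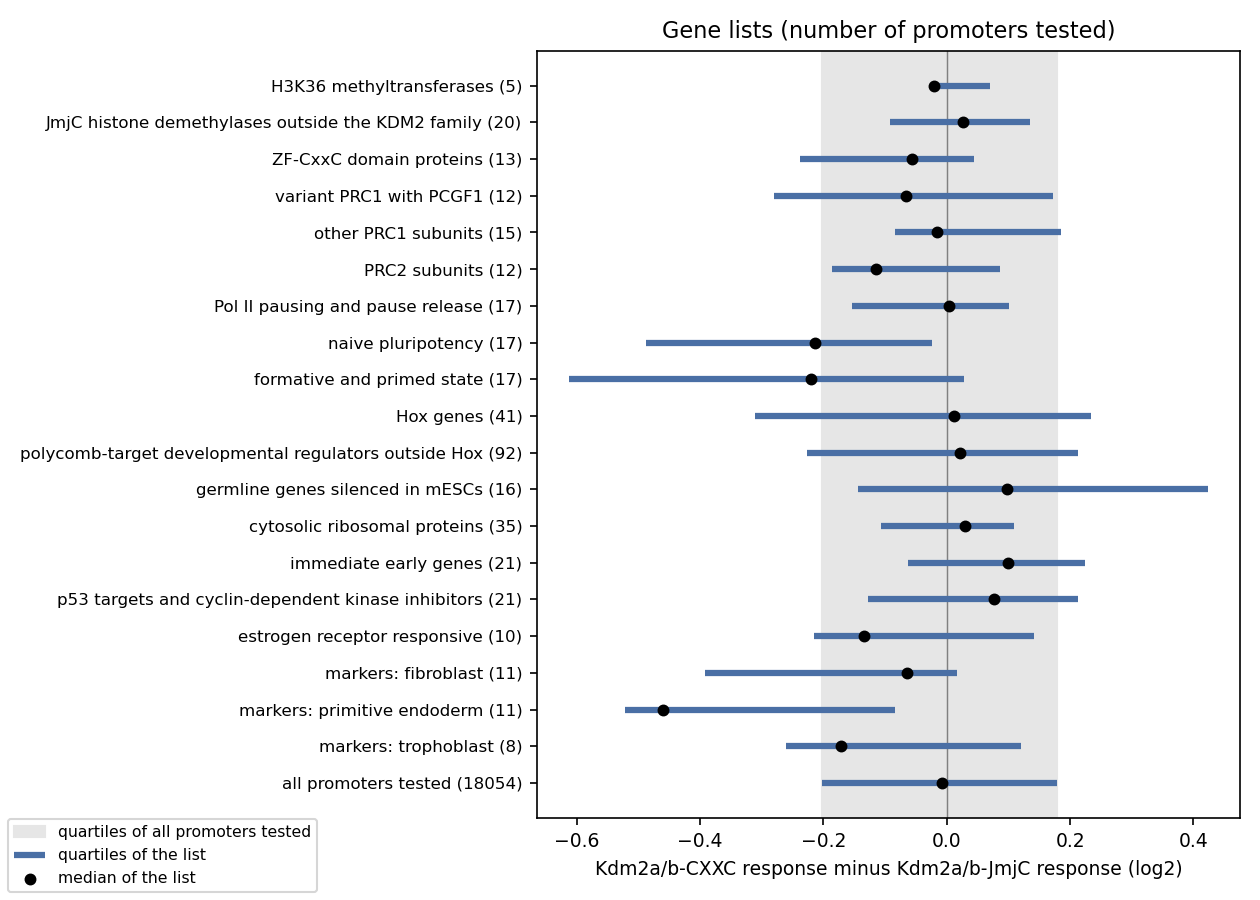
Median (point) and quartiles (bar) of the difference of responses (log2, horizontal axis) in each gene list, with the number of promoters tested in brackets and the quartiles of all tested promoters, -0.20 to 0.18, in grey. The medians of the naive pluripotency, formative and primed state and primitive endoderm lists, -0.21, -0.22 and -0.46, lie at the left edge of the grey band or beyond it, and no list was tested.

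Promoters were also grouped by CpG content. When the tested promoters were divided into 4 equal groups by their number of CpGs, the median response in Kdm2a/b-JmjC went from 0.092 in the group with the fewest CpGs through 0.033 and -0.0021 to -0.052 in the group with the most. In Kdm2a/b-CXXC the medians were 0.0081, 0.0031, 0.0087 and -0.025. The difference accordingly had medians of -0.079, -0.031, 0.0081 and 0.027. A fall with CpG number was not particular to Kdm2a/b-JmjC. In Kdm2a-CXXC, which is not part of the difference, the median responses were 0.11, 0.012, -0.0023 and -0.038. In Kdm2b-CXXC they were 0.059, -0.0021, 0.0044 and -0.013. These medians were not tested. In the group with the fewest CpGs 79 of 4514 promoters had a higher and 210 a lower response at an unadjusted p under 0.05. In the group with the most, also of 4514, the counts were 195 and 83. Over all tested promoters the shares were 3.15% higher and 3.33% lower. Accessibility moved with CpG content, from a median of 7.26 RPM in the first group to 70.4 in the last, and its part was not tested.

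Whether this holds over libraries was tested with 1 value per library. The median log2 ratio to the untreated mean of the line was taken over CpG-rich promoters and over the other promoters, and the second was subtracted from the first. In Kdm2a/b-CXXC the values were -0.039, -0.013, -0.025 and 0.024 in untreated and 0.021, 0.032, -0.14 and 0.029 in treated libraries. In Kdm2a/b-JmjC they were -0.069, 0.033 and 0.0059 in untreated and -0.12, -0.073 and -0.070 in treated libraries. The Kdm2a/b-JmjC groups were just separated and the Kdm2a/b-CXXC groups overlapped, with treated replicate 3 far below the others. The changes were -0.0013 and -0.077, and their difference was 0.076 (exact two-sided permutation p = 0.221 over 1400 arrangements within lines, adjusted over 4 such values 0.430). Without tamoxifen replicate 3 of Kdm2a/b-CXXC it was 0.12 (exact permutation, adjusted p = 0.0343). Within bins of equal GC content the difference was 0.025 (exact permutation p = 0.51, adjusted 0.51).

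The spike-in scale adds a shift common to all promoters, which scaling to the promoter total removes. On that scale the median log2 ratio was 0.43, 0.15, 0.0030 and -0.18 in the treated libraries of Kdm2a/b-CXXC and -0.093, -0.29 and -0.22 in those of Kdm2a/b-JmjC, with untreated libraries between -0.049 and 0.056 in both lines. The treated Kdm2a/b-CXXC libraries lay on both sides of the untreated ones, and the treated Kdm2a/b-JmjC libraries all lay below. The shift was 0.091 in Kdm2a/b-CXXC and -0.20 in Kdm2a/b-JmjC, a difference of 0.29 (exact two-sided permutation p = 0.0743, adjusted 0.297). Leaving out tamoxifen replicate 4 of Kdm2a/b-CXXC gave 0.39 (exact permutation, adjusted p = 0.0229), and leaving out tamoxifen replicate 1 gave 0.19. On the spike-in scale the median difference over tested promoters was 0.30, and 2412 promoters had a higher and 64 a lower response in Kdm2a/b-CXXC at an unadjusted p under 0.05, in place of 569 and 602. All other differences here are relative to the promoter total.

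The response of weakly against strongly accessible promoters was compared in the same way. The median over the group with the lowest accessibility minus that over the highest changed by -0.0053 in Kdm2a/b-CXXC and by 0.092 in Kdm2a/b-JmjC, and the groups overlapped in both lines. The difference was -0.097 (exact two-sided permutation p = 0.323, adjusted 0.430). None of the 4 values per library thus passed this test, which exchanges treatment labels within each line as if neither line responded. The smallest p that the design allows is 0.00143.

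**Figure D5:**
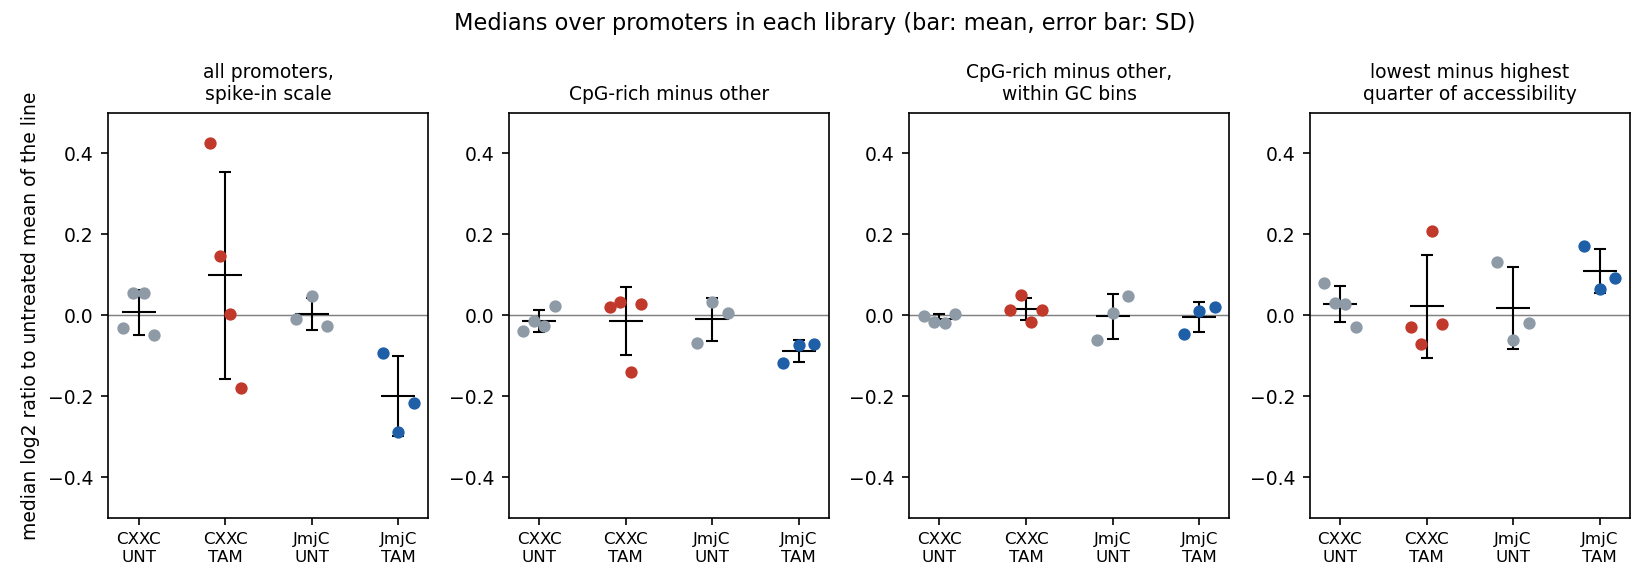
Each point is 1 of the 14 libraries (UNT, untreated; TAM, tamoxifen-treated; CXXC, Kdm2a/b-CXXC; JmjC, Kdm2a/b-JmjC), with bars at the group mean and error bars of 1 SD, and the vertical axis gives a median log2 ratio to the untreated mean of the line, or in the 3 right panels the difference of 2 such medians. The treated JmjC libraries lie below the untreated ones in the first 2 panels, and the treated CXXC libraries spread from -0.18 to 0.43 in the first.

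By chromosome, the median difference of responses ran from -0.087 on chromosome X (536 promoters) to 0.054 on chromosome 8 (984 promoters). On chromosome 8, 51 promoters had a higher and 14 a lower response at an unadjusted p under 0.05. Together they were 6.61% of its promoters, against 6.49% of all tested promoters (3.15% higher and 3.33% lower). The library medians of chromosome 8, relative to the untreated mean, overlapped in both lines. They were -0.010 to 0.043 in untreated and 0.022 to 0.086 in treated Kdm2a/b-CXXC libraries. In Kdm2a/b-JmjC they were -0.016 to 0.014 and -0.048 to 0.012. The 2 lines also differed in the level of many chromosomes, and the mean log2 level of Kdm2a/b-CXXC libraries minus that of Kdm2a/b-JmjC libraries was furthest from 0 on chromosome 1 (-0.49), where the median difference of responses was -0.022. It was -0.34 on chromosome 8 and -0.28 on X. The part of such line differences in the responses was not tested.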

How the data were processed

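Calibrated ATAC-seq reads were aligned by the authors with Bowtie2 to concatenated mm10 and dm6 genomes, and multi-mapping, duplicate, artefact and mitochondrial reads were removed. The deposited values are a signal, mouse reads per promoter divided by a DESeq2 size factor from the Drosophila spike-in corrected by input genomic DNA. The tables also hold the authors' fold changes and tests, which were not used. Libraries were grouped by their labels. The steps between values gave whole reads for 100% of values (tolerance 0.01), and 1.49 to 2.09 M promoter reads per library.

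The tables were joined on RefSeq identifier and scaled to each library's promoter total. After filterByExpr (edgeR 4.0.16, minimum count 10) limma 3.58.1 (R 4.3.3, with a mean-variance trend) was fitted to log2(RPM + 0.5) of all 14 libraries, without covariates. Because the values are normalized, limma was the main test, and the edgeR and DESeq2 1.42.0 tests on the recovered reads were alternatives, with other scalings, pseudocounts, no filter, sample weights, a replicate block and each library left out. Fold changes on this scale understate changes at low values. Single values were compared by exact permutation of the treatment labels within lines, whose null is no response in either line rather than equal responses. Of the fits, only the limma test of the difference was run on simulated data. Changes were planted in treated Kdm2a/b-CXXC libraries, without differences between lines or replicates, and the outcome is not given here. Symbols were matched for 99.1% of promoters. Sequences were read from GRCm38.p6, and coordinates are 1-based.

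The comparison, its members and the gene lists were chosen with earlier results of these data known. Named promoters were Kdm2a, Kdm2b, Fbxl20 and Fosl2, the 10 smallest unadjusted p over 1.4-fold in each direction because none was called, and each list's highest and lowest member. A sequence and a list member that this rule selects are not reported here. Members at an unadjusted p under 0.05 and the calls within a line were named after their values were seen.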

Additional observations from a re-analysis of the deposited data

Results flagged for a closer look

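In each group of 4 libraries the gap between an extreme library and its nearest neighbour was divided by the range of the group. Of 68 groups tested, 3 exceeded Dixon's 95% critical ratio, and chance alone flags about 1 in 20 groups. The groups of 4 are all of Kdm2a/b-CXXC, so no Kdm2a/b-JmjC library could be flagged, and all 3 were of treated libraries, a share that was not tested. For the CpG-rich median less that of the other promoters, the ratio was 0.932, with replicate 3 at -0.14 and the other libraries between 0.021 and 0.032. At Tmtc4 it was 0.882, with replicate 2 at 123 RPM and the others at 106 to 108 RPM. At the upstream Kdm2b promoter (NM_001003953) it was 0.870, with replicate 2 at 23.3 RPM and the others at 20.8 to 21.2 RPM.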

How the results depend on the processing

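The count of 0 promoters with different responses held under every alternative that kept all 14 libraries (scalings, pseudocounts, no filter, edgeR, DESeq2, sample weights), and with 1 library left out it ran from 0 to 4. The 4 came without untreated replicate 3 of Kdm2a/b-JmjC. With all libraries the smallest limma adjusted p came near the threshold in some alternatives. It was 0.0565 with a replicate block, 0.0740 with sample weights and 0.0954 with a pseudocount 4 times larger, but 0.405 without the filter. The count within Kdm2a/b-JmjC was 0 under all alternatives. The 7 calls within Kdm2a/b-CXXC became 0 on the spike-in scale and 0 without the filter (1219 and 1761 at an unadjusted p under 0.05), 14 with edgeR and 17 with a pseudocount 4 times larger, and 0 to 10 with 1 library left out; the 14 and the 17 each contained the 7. DESeq2 gave 9, with 6 of the 7. At single promoters, deviations from the group mean correlated weakly between same-numbered libraries, at -0.011 to 0.026 in Kdm2a/b-CXXC and 0.044 to 0.057 in Kdm2a/b-JmjC. On chromosome X replicate 3 of Kdm2a/b-JmjC had the highest median log2 ratio to the untreated mean in both groups (0.123 untreated, 0.125 treated). Whether replicate numbers mark pairs was not tested. A replicate block gave 25 calls within Kdm2a/b-CXXC, 0 within Kdm2a/b-JmjC and 0 for the difference. The cause of these changes was not tested.

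The spike-in shift reversed to -0.0091 with scaling to the promoter total, which removes a common shift by construction, and with 1 library left out it ran from 0.19 to 0.39 (the latter passing the exact test). The CpG-rich minus other difference ran from 0.057 to 0.12 and passed in 1 of these. Some promoters that did not pass the test changed sign. With 1 library left out, the difference of responses ran from -0.19 to 0.056 at the upstream Kdm2b promoter (NM_001003953; above 0 also at 0.035 and 0.014), from -0.0079 to 0.22 at the downstream one (NM_013910), from -0.061 to 0.45 at Fosl2 (also -0.053 and -0.051), from -0.037 to 0.26 at Kdm2a, from -0.15 to 0.61 at Gper1 and from -0.15 to 0.33 at Tet2. On the spike-in scale the upstream Kdm2b promoter was at 0.25.

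Depth limits the weakly accessible promoters most, and a count of 0 calls does not show that the responses were alike. A library left out of a group of 3 leaves 2, and differences between 3 and 4 libraries per group carry wide intervals.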

Other observations

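Further highest and lowest members of the gene lists are given here as values of the difference of responses (log2), each followed by its range with 1 library left out. None passed the test after adjustment. These ranges are not 95% intervals of the difference. The 95% interval excluded 0 only at Lhx9 (NM_010714), Hoxb3, Ccn2, Cdkn1c, Eda2r and the Elf5 promoter at -1.46. It ran from -0.53 to 2.23 at the other Lhx9 promoter and from -0.10 to 2.06 at Jund. Some promoters had few reads, with group means of 5.13 to 9.36 RPM at Lhx9 (NM_001042577), 3.25 to 6.85 at Hoxb3 and 2.95 to 5.06 at Pdgfra. Among developmental regulators an Lhx9 promoter (NM_001042577) was at 0.85 (0.61 to 1.14) and another (NM_010714) at -1.42 (-1.67 to -1.17), and Hoxb3 was at 1.49 (1.24 to 1.85). Tet1, a ZF-CxxC protein that oxidises methylcytosine, was at -0.83 and moved from -1.26 without untreated replicate 3 to -0.36 without untreated replicate 2 of Kdm2a/b-JmjC. The PRC2-associated Epop was at 0.27 (0.11 to 0.38) and the PCGF1 complex member Bcor at 0.56 (0.34 to 0.78). Polr2m was at -0.58 and moved from -1.11 without tamoxifen replicate 1 to -0.0088 without tamoxifen replicate 3 of Kdm2a/b-JmjC, and Aff4, a scaffold of the super elongation complex, was at 0.29 (0.21 to 0.44). Lef1 was at 0.28 (0.097 to 0.40), the germline gene Piwil2 at -0.56 (-0.72 to -0.29) and the ribosomal protein gene Rps3 at 0.23 (0.16 to 0.31). Among signalling and stress genes Jund was at 0.98 (0.70 to 1.25), Ccn2 at -0.65 (-0.79 to -0.48), Cdkn1c at 0.43 (0.32 to 0.59) and Eda2r at -0.62 (-0.78 to -0.44). Among markers of other cell types Pdgfra was at -1.45 and moved from -1.92 without untreated replicate 4 to -0.69 without tamoxifen replicate 3 of Kdm2a/b-CXXC. Col1a1 was at 0.67 (0.32 to 0.89), and 2 Elf5 promoters were at 0.92 (0.48 to 1.33) and -1.46 (-1.86 to -1.08). Gper1 was at 0.30 and Tet2 at 0.14, and both changed sign in a fit with a library left out.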
